A study of Mus musculus with 12 samples.

Results

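The cytochromes P450 of families 1 to 3 are the heme enzymes that oxidize drugs, plant compounds and many of the body's own lipids. Their genes were taken by symbol, as every Cyp1, Cyp2 or Cyp3 gene that is not a pseudogene and has a probe set of its own on the array. This gave 51 genes out of 19938 genes with such a probe set, and each of the 51 was read from 1 probe set. They were measured in total RNA from the jejunum of male AJ (A/J) and C57BL6J (B6) mice, 8 weeks old. The mice had a common bile duct ligation (CBDL), which stops bile from reaching the gut, or a sham operation, and the jejunum was collected on day 7. Strain and operation give 4 groups with 3 arrays each, and the labels name no engineered allele and no drug. Per the paper's methods the mice had isoflurane for surgery. Buprenorphine was given against pain at surgery and in the days after it. Whether each array is a separate animal is not in the labels, and p-values therefore cover only the spread between these arrays, which may be partly technical. The jejunum was not separated into cell types, and in such bulk RNA fewer cells of a type and less RNA per cell cannot be told apart.

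P450s of these families sit in the membrane of the endoplasmic reticulum and receive electrons from the reductase Por. Enterocytes at the tips of the villi carry a set of their own, among them Cyp3a and Cyp2c enzymes, which act on food compounds and drugs before these reach the liver, while the hepatocyte carries a larger and partly different set. Ligands in food, bile and from microbes act on the receptors Ahr, Nr1i2 (PXR), Nr1i3 (CAR) and Nr1h4 (FXR). Ahr induces Cyp1a genes, and PXR and CAR induce Cyp3a, Cyp2b and Cyp2c genes. For the description, the members were split into 9 gut P450s (Cyp1a1, Cyp2c55, Cyp2u1 and the 6 Cyp3a genes), 4 other small-intestinal P450s (Cyp2b10, Cyp2c65, Cyp2c66 and Cyp2s1), 2 liver P450s (Cyp1a2 and Cyp2e1), 12 other liver P450s and 24 genes in neither group.

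The promoters of 5 members are shown because the genes lie side by side and their log2 fold changes after CBDL differed in sign or shared it. Cyp1a1 and Cyp1a2 are neighbours on chromosome 9 that are read in opposite directions, and in A/J mice their log2 fold changes after CBDL were -2.50 and 1.09. In B6 mice they were -1.73 and -0.11, and the Cyp1a2 change did not pass the test in either strain. Cyp2c55, Cyp2c65 and Cyp2c66 are the first 3 of the 13 Cyp2c members along chromosome 19 and had negative log2 fold changes in both strains. Each sequence is the 250 bases before the transcription start from RefSeq (GRCm38.p6), written 5′ to 3′ along the gene, at chr9:57697363-57697612 on the plus strand for Cyp1a1, chr9:57683656-57683905 on the minus strand for Cyp1a2, chr19:39006769-39007018 on the plus strand for Cyp2c55, chr19:39060756-39061005 on the plus strand for Cyp2c65 and chr19:39113648-39113897 on the plus strand for Cyp2c66. Capitals mark GCGTG, the core of the element that the Ahr complex binds, and TATAAA, 1 form of the TATA box, on either strand. Other forms are not marked, such as the TATATAA nearer the start in the Cyp2c65 and Cyp2c66 windows. Whether a marked stretch works as a TATA box was not tested.
Cyp1a1: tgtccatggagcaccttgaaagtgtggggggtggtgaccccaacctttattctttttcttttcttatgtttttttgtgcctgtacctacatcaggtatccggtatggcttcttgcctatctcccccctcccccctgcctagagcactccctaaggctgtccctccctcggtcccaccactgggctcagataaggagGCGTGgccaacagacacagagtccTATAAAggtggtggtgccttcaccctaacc
Cyp1a2: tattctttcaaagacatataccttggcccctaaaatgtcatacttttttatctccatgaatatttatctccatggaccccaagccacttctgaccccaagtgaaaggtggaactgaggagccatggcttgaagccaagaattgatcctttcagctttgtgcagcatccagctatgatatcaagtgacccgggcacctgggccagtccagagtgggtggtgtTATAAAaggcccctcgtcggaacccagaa
Cyp2c55: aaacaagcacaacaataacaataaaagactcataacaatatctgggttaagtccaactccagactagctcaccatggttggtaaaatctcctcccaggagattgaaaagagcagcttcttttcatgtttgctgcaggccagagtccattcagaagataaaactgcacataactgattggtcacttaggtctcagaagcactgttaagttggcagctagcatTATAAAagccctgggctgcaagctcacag
Cyp2c65: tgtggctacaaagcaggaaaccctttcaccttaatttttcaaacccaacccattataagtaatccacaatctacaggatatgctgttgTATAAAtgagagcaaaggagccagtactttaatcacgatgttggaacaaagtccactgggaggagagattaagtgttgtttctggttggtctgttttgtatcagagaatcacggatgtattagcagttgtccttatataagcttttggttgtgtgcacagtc
Cyp2c66: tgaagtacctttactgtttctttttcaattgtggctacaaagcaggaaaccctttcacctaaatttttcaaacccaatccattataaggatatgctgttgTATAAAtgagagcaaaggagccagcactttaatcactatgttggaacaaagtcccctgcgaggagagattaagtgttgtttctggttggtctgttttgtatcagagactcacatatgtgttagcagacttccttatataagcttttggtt

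The Cyp1a1 window held 1 GCGTG, with its first base 54 bases before the start, and a TATAAA 30 bases before it. In the Cyp1a2 window there was a TATAAA at 29 bases and no GCGTG. Cyp2c55 had its TATAAA at 29 bases, and Cyp2c65 and Cyp2c66 had theirs at 162 and 150 bases. In a global alignment the Cyp2c65 and Cyp2c66 windows were identical at 208 of 279 aligned positions (74.6%), and Cyp2c55 matched them at 51.9% and 46.1%, which lies within the 43.7% to 84.3% found over all pairs of Cyp2c windows. RefSeq windows were matched for 44 of the 51 members (47 windows). Of these windows, 44.7% held TATAAA on either strand, compared with 12.4% of 32851 windows of all genes, and 19.1% held GCGTG, compared with 28.2%. The longer form TNGCGTG, which contains GCGTG, was in 2.1% of member windows (Cyp2c68) and in 4.1% of all windows. A match describes only these letters in this window.

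Values are log2 signals, so 1 unit is a doubling, and array medians lay between 5.36 and 5.51. A signal is comparable between arrays of a strain for 1 probe set but not between probe sets. Between the strains, equal binding of the probes was not tested. The tissue label was checked against markers. All 14 enterocyte markers were measured, and their mean lay between 11.36 and 11.61 on the 12 arrays. The mean of 25 hepatocyte markers, which include no P450, was low in A/J sham (4.75 to 5.12) and high in A/J CBDL (7.54 to 7.98) and B6 CBDL (7.45 to 7.76). The 3 B6 sham arrays did not form 1 level, with 5.62, 6.31 and 7.60. Alb, the gene of serum albumin, stood at 5.47, 5.31 and 8.44 in A/J sham, 12.15, 12.63 and 12.25 in A/J CBDL, 10.69, 11.61 and 12.28 in B6 sham and 11.85, 12.46 and 12.08 in B6 CBDL. B6 sham replicate 3 therefore resembled the CBDL arrays in these markers, and liver P450 results that rest on it are given with and without it. Pancreatic acinar markers were low and level (4.86 to 5.16).

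A fold change was called at an adjusted p under 0.05 from limma, with the Benjamini-Hochberg adjustment over all 35556 probe sets. In A/J mice 6 of the 51 P450s were called after CBDL, where 0.818% of all probe sets were called. They were 4 higher (0.630% of all probe sets) and 2 lower (0.188%), and 19 of 51 had an unadjusted p under 0.05 (14.2%). The B6 comparison called 1 of 51, which was lower, where 0.0534% of all probe sets were called and 0.0169% were called lower, and 17 of 51 had an unadjusted p under 0.05 (7.64%). Averaged over both strains, 12 of 51 were called (1.74% of all probe sets), 5 higher (1.12%) and 7 lower (0.616%). Between the strains 8 of 51 differed in the sham mice (1.87%), 3 higher in A/J (0.579%) and 5 lower (1.29%), and 2 of 51 differed in the CBDL mice (1.78%), 1 higher (0.562%) and 1 lower (1.22%). The strain by CBDL interaction tests whether the response differs between strains. It called 0 of 51 in limma, with 14 of 51 at an unadjusted p under 0.05, where 6.88% of all probe sets had such a p and 0.0366% were called (0.0309% higher and 0.00562% lower). Left-out arrays moved these counts. The shares of all probe sets called in those fits are not given here, so whether the moves are particular to P450s was not tested. Without B6 sham replicate 3 the A/J count was 11, the B6 count 2 and the sham strain count 5. Without A/J sham replicate 2 the sham strain count was 1 and the averaged count 6, and the averaged count was also 6 without A/J CBDL replicate 2 and 7 without B6 CBDL replicate 3. Without B6 sham replicate 2 the B6 count was 2 and the interaction called 2 members (Cyp2c29 and Cyp2c55), and without B6 sham replicate 1 it called 1 (Cyp2e1).

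The called P450s of the intestinal lists were lower after CBDL, and those of the liver lists were higher. The lists were chosen with earlier results of these data known, so this contrast is a description and not independent evidence. Of the 13 gut and other small-intestinal P450s, 7 were called lower and 0 higher in the averaged comparison, with medians of -0.24 for the 9 gut P450s and -0.81 for the other 4. Of the 14 liver and other liver P450s, 4 were called higher and 0 lower, with medians of 1.63 for the 2 liver P450s and 0.69 for the other 12. Of all probe sets 0.616% were called lower and 1.12% higher in that comparison, and their median was -0.0099. In A/J mice the medians were -0.016, -0.43, 2.77 and 1.18 in the same order, and in B6 mice they were -0.66, -1.23, 0.49 and 0.32. The medians of both intestinal lists were lower in B6 and those of both liver lists were higher in A/J, but in limma 0 of these 27 genes passed the interaction test (11 at an unadjusted p under 0.05).

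**Figure D1:**
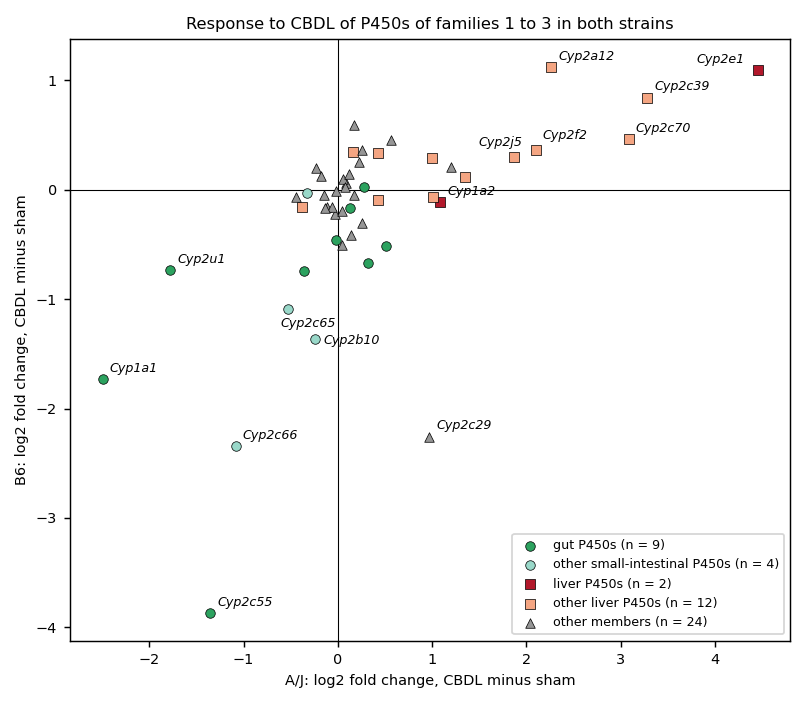
Log2 fold change after CBDL (CBDL minus sham) of each of the 51 P450s, A/J on the horizontal and B6 on the vertical axis, with colour and shape for the 5 lists. Green points (P450s of the intestine) lie at or below 0 in B6 with 1 exception, down to Cyp2c55 at -3.87, and red and orange squares (liver) extend to the right, up to Cyp2e1 at 4.46 in A/J.

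Cyp1a1, the enzyme most strongly tied to Ahr, had lower signals after CBDL in both strains. It measured 6.38, 7.21 and 7.46 in A/J sham, 4.59, 4.54 and 4.42 in A/J CBDL, 6.68, 5.22 and 5.92 in B6 sham and 4.15, 4.33 and 4.16 in B6 CBDL. All 6 CBDL arrays lay below all 6 sham arrays. In A/J mice Cyp1a1 fell by 2.50 (standard error 0.33, 5.65-fold, adjusted p = 0.00717), and the averaged comparison gave -2.11 (standard error 0.23, adjusted p = 0.00193). The B6 value of -1.73 (standard error 0.33) did not pass on its own (adjusted p = 0.110). The A/J and averaged calls held under all alternatives but the hepatocyte covariate, where the A/J value was -2.02.

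Cyp2u1, a hydroxylase of arachidonic acid and other long-chain fatty acids, gave the smallest adjusted p of the members in A/J mice. The A/J sham arrays read 8.75, 9.03 and 9.02 and the A/J CBDL arrays 7.22, 7.11 and 7.13. In B6 mice the sham arrays read 7.67, 8.19 and 8.23 and the CBDL arrays 7.33, 7.38 and 7.18. The groups did not overlap in either strain, and the sham level was higher in A/J than in B6, while the CBDL arrays of both strains shared 1 range. Cyp2u1 fell by 1.78 in A/J mice (standard error 0.15, adjusted p = 0.000810). The B6 value was -0.74 (standard error 0.15, adjusted p = 0.122), and the difference between the strains was -1.04 (standard error 0.21, unadjusted p = 0.000399, adjusted p = 0.319 in the interaction test). Between the sham groups the difference was 0.90 (standard error 0.15, adjusted p = 0.00918), and this call ended without A/J sham replicate 2 (adjusted p = 0.0509) and with only the sham arrays in the fit (adjusted p = 0.115).

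Cyp2c55, an intestinal P450 that acts on arachidonic acid, was the member called in B6 mice. It stood at 9.81, 8.33 and 9.63 in B6 sham and at 5.08, 5.48 and 5.59 in B6 CBDL. The A/J sham arrays had 6.90, 6.42 and 6.85 and the A/J CBDL arrays 5.75, 5.28 and 5.08. Every CBDL array was below every sham array of its strain, and B6 sham was above all other groups. The B6 change was -3.87 (standard error 0.34, 14.6-fold, adjusted p = 0.00755), with an adjusted p of 0.0726 when only the 6 B6 arrays were fitted. In A/J mice it was -1.35 (standard error 0.34, adjusted p = 0.105). The sham difference between A/J and B6 was -2.53 (standard error 0.34, adjusted p = 0.00354, and 0.0511 with only the sham arrays), whereas after CBDL it was -0.016 (95% interval -0.77 to 0.74). The interaction was 2.52 (standard error 0.48, unadjusted p = 0.000298, adjusted p = 0.294), and it was called without B6 sham replicate 2, the lowest of its group for this gene.

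Cyp2c65 and Cyp2c66, the next Cyp2c genes of the intestine along the chromosome, had their highest group mean in B6 sham and their lowest in B6 CBDL. For Cyp2c66 the arrays read 10.93, 9.88 and 11.07 in A/J sham, 9.65, 9.57 and 9.40 in A/J CBDL, 11.85, 10.83 and 11.86 in B6 sham and 8.48, 9.48 and 9.55 in B6 CBDL. For Cyp2c65 they read 10.87, 10.70 and 11.25, then 10.51, 10.40 and 10.31, then 11.48, 11.02 and 11.61, then 9.76, 10.55 and 10.53 in the same groups. Sham and CBDL arrays did not overlap in either strain for either gene. Averaged over the strains, Cyp2c66 fell by 1.72 (standard error 0.27, adjusted p = 0.0117) and Cyp2c65 by 0.81 (standard error 0.16, adjusted p = 0.0339). The B6 values were -2.35 and -1.09 (adjusted p = 0.0678 and 0.145). The Cyp2c65 call ended on leaving out any single array other than A/J sham 1, B6 sham 2, B6 CBDL 1 and B6 CBDL 2 (adjusted p up to 0.0867).

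Cyp2b10, the usual CAR target, had overlapping groups in A/J mice and lower signals in B6 CBDL. It measured 11.23, 11.22 and 11.74 in A/J sham, 11.48, 11.00 and 10.97 in A/J CBDL, 11.77, 11.35 and 11.68 in B6 sham and 9.84, 10.46 and 10.41 in B6 CBDL. All 3 B6 CBDL arrays lay below the other 9. The B6 difference of -1.36 (standard error 0.21) had an adjusted p of 0.0616, and the A/J difference was -0.25 (standard error 0.21). The averaged call of -0.81 (adjusted p = 0.0257) ended without A/J sham 2, without CBDL 2 or 3 of the same strain, and without sham 1 or 3 of B6 (adjusted p up to 0.0716). Cyp2s1, a P450 of epithelia outside the liver, had small differences after CBDL, -0.33 in A/J (adjusted p = 0.228) and -0.030 in B6.

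The Cyp3a genes, the main drug-oxidizing P450s of the small intestine, had small differences after CBDL. Of the 6 members 0 were called in A/J or in B6 mice in limma (0 and 2 at an unadjusted p under 0.05), and their fold changes ran from -0.36 to 0.52 in A/J and from -0.74 to 0.026 in B6. Cyp3a25 was called in the averaged comparison (-0.55, standard error 0.12, adjusted p = 0.0452), with 11.76, 11.76 and 12.16 in A/J sham, 11.65, 11.57 and 11.37 in A/J CBDL, 12.01, 11.69 and 12.14 in B6 sham and 10.91, 11.35 and 11.35 in B6 CBDL. Its CBDL arrays lay below its sham arrays in both strains, but the call was lost on leaving out any single array other than A/J sham 1 and B6 sham 2 (adjusted p up to 0.110). Cyp3a11, the PXR target most often used in mice, read 10.12, 10.14 and 10.61 in A/J sham, 11.18, 10.78 and 10.46 in A/J CBDL, 11.25, 9.87 and 11.02 in B6 sham and 10.01, 10.07 and 10.51 in B6 CBDL. Its groups overlapped in both strains, with differences of 0.52 (95% interval -0.20 to 1.23) in A/J and -0.52 (95% interval -1.23 to 0.20) in B6. Cyp3a44 had 0.32 and -0.66, and Cyp3a13 had 0.27 and 0.026. Cyp3a16 and Cyp3a57 were among the dimmest 30% of probe sets, with signals from 2.81 to 3.46 and from 2.19 to 3.03.

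**Figure D2:**
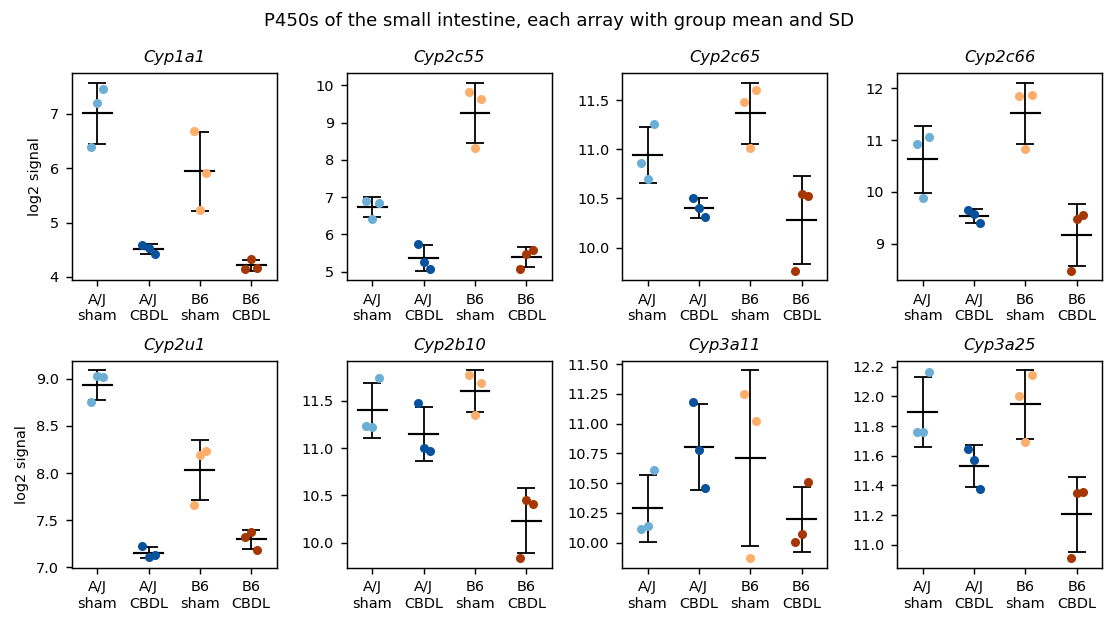
Log2 signal on each array (points) with the group mean (long bar) and SD (short bars), 3 arrays per group, for 8 P450s of the small intestine. Cyp1a1, Cyp2c55, Cyp2c65, Cyp2c66, Cyp2u1 and Cyp3a25 are lower in all CBDL arrays than in all sham arrays of the strain, Cyp2b10 so in B6, and Cyp3a11 overlaps; each panel has its own axis, which does not start at 0.

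Cell type markers moved with some of these values in B6 mice. The mean of 6 smooth muscle markers was 8.53 to 9.19 in B6 sham and 7.06 to 7.88 in B6 CBDL, against 6.88 to 9.32 and 8.18 to 9.11 in the A/J groups. Leukocyte markers (6 of 7 measured) had means of 7.72 to 7.80 in B6 sham and 7.13 to 7.28 in B6 CBDL. All 6 genes of either list were lower in every B6 CBDL array than in every B6 sham array (7.62% of all probe sets were), and 0 of the 12 were called in limma (6 and 4 at an unadjusted p under 0.05). Their part in the lower B6 signals was not tested. The enterocyte markers had a median difference of -0.086 in B6 and 0.023 in A/J. In B6 mice 7 of the 14 lay lower and 1 higher without overlap (7.62% and 7.89% of all probe sets). In A/J mice 4 lay lower and 1 higher (9.07% and 8.04% of all probe sets). In limma 0 of the 14 were called in either strain (2 in B6 and 5 in A/J at an unadjusted p under 0.05). Lct, the gene of lactase, was the 1 of 14 called in the averaged comparison, where it fell by 0.47, and goblet and Paneth markers, 5 measured of each, were not called after CBDL in either strain.

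Cyp2e1, which oxidizes ethanol and small solvents in the liver, was the member with the largest rise in A/J mice. It read 4.97, 4.99 and 4.81 in A/J sham, 8.97, 9.75 and 9.42 in A/J CBDL, 6.32, 7.88 and 9.75 in B6 sham and 9.01, 9.18 and 9.06 in B6 CBDL. The A/J groups were far apart, while the B6 sham arrays spanned most of that distance and reached above the B6 CBDL arrays. In A/J mice Cyp2e1 rose by 4.46 (standard error 0.62, 21.9-fold, adjusted p = 0.00869). The B6 difference was 1.10 (standard error 0.62, adjusted p = 0.761), and without B6 sham replicate 3 it was 1.98 (standard error 0.37, adjusted p = 0.0914). Between the sham groups A/J was lower by -3.06 (standard error 0.62, adjusted p = 0.0318), and -2.18 without that array (adjusted p = 0.0276), but this call was lost without any single A/J sham or B6 CBDL array, without A/J CBDL 3 and without B6 sham 2 (adjusted p up to 0.106).

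Cyp1a2, which oxidizes caffeine in the liver, lay close to the level of the dimmest probe sets in A/J sham. It measured 3.65, 3.64 and 3.63 there, 4.52, 5.17 and 4.50 in A/J CBDL, 3.78, 3.92 and 5.59 in B6 sham and 3.91, 4.48 and 4.56 in B6 CBDL. The A/J groups did not overlap and the B6 groups did, with B6 sham replicate 3 above all others. The A/J difference was 1.09 (standard error 0.40, adjusted p = 0.255), and it was called when B6 sham replicate 3 was left out of the fit (standard error 0.21, adjusted p = 0.0403). The B6 difference was -0.11, and 0.46 without that array (adjusted p = 0.985 and 0.724).

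Of the 12 other liver P450s, 3 were called higher in A/J mice, where 0.630% of all probe sets were. In the same list 11 of 12 had positive values, with 9 not overlapping upward (8.04% of all probe sets did not overlap upward). Cyp2c70, the enzyme that makes the muricholic acids of mouse bile, read 5.09, 4.87 and 4.98 in A/J sham, 7.53, 8.52 and 8.14 in A/J CBDL, 5.84, 6.68 and 7.63 in B6 sham and 6.40, 7.57 and 7.56 in B6 CBDL. It rose by 3.08 in A/J mice (standard error 0.44, adjusted p = 0.00916), a call that ended without A/J sham replicate 2 (adjusted p = 0.0556), and the B6 value was 0.46 (standard error 0.44, adjusted p = 0.915), or 0.92 without B6 sham replicate 3 (standard error 0.39, adjusted p = 0.657). As with Cyp2e1, the B6 sham arrays were spread between the A/J sham level and the CBDL level. Cyp2a12, a steroid hydroxylase, rose by 2.26 in A/J mice (standard error 0.43, adjusted p = 0.0372), from 3.85, 3.47 and 3.98 to 5.75, 6.45 and 5.89. Its call was lost on leaving out any single array other than A/J sham 3, B6 sham 1 and B6 sham 3 (adjusted p up to 0.154), while in B6 mice it was 1.13, and 1.72 without B6 sham replicate 3 (adjusted p = 0.529 and 0.0423). Cyp2f2, which activates naphthalene, and Cyp2j5, an arachidonic acid epoxygenase, had A/J values of 2.10 and 1.87. These did not pass in the main fit (adjusted p = 0.0987 and 0.0738). Both were called with only the arrays compared, with only probe sets that have 1 symbol and with array weights. Cyp2j5 was also called without B6 sham replicate 1, and both were called without B6 sham replicate 3 (adjusted p = 0.00344 and 0.00511). Without that array their B6 values were 1.11 and 0.87 in place of 0.36 and 0.30 (adjusted p = 0.293 and 0.439). Cyp2c50 (1.35), Cyp2c54 (1.01) and Cyp2d9 (1.00) did not overlap in A/J either and did not pass, but without B6 sham replicate 3 the last 2 were called (adjusted p = 0.0757, 0.0335 and 0.0490). Their B6 values were 0.11, -0.069 and 0.29, and 0.91, 0.56 and 0.76 without it, none of which passed (adjusted p = 0.548, 0.552 and 0.371 without it). Cyp2c37 (0.43), Cyp2d10 (0.43), Cyp2c67 (0.16) and Cyp2c68 (-0.38) had the smallest differences of the list.

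**Figure D3:**
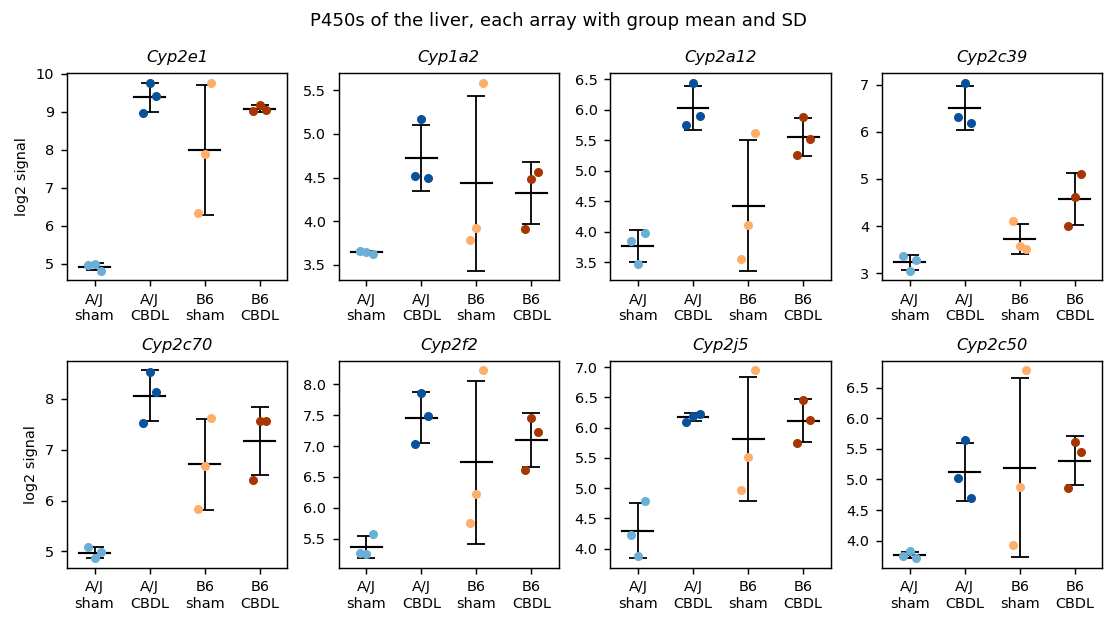
Log2 signal on each array (points) with the group mean (long bar) and SD (short bars), 3 arrays per group, for 8 P450s of the liver. In 7 of the panels the B6 sham points are spread and the highest is B6 sham replicate 3, whereas Cyp2c39 is at 3.51 to 4.10 in all 3 B6 sham arrays; each panel has its own axis, which does not start at 0.

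These values moved with the hepatocyte markers. Of the 25 markers 17 were called higher in A/J mice (median 2.60) and 0 in B6 mice in limma (median 0.91, 13 at an unadjusted p under 0.05). Of all probe sets 0.630% were called higher in A/J and 0.0366% in B6. Without B6 sham replicate 3 the marker counts were 22 and 8, with a B6 median of 1.41. Over the 14 liver and other liver P450s the medians were 1.22 in A/J and 0.32 in B6, and 0.75 in B6 without that array. The array was picked out by these same markers, so the B6 values without it are not independent of that choice. With the hepatocyte mean as a covariate the A/J difference of Cyp2e1 was -0.064 (standard error 0.515), that of Cyp2a12 -0.88 and that of Cyp2c70 0.34. For Cyp2c39 it was 3.59 (standard error 0.76), for Cyp1a1 -2.02 (standard error 0.86) and for Cyp2u1 -2.44 (standard error 0.32). The covariate nearly follows the A/J groups, and it widened the A/J standard errors by a median factor of 2.62. In that fit 0 of 51 members were called in A/J in limma (13 at an unadjusted p under 0.05), while in B6, where the factor was 1.38, Cyp2c55 was -3.93 (standard error 0.48, adjusted p = 0.0525).

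Cyp2c39, a hepatic P450 that hydroxylates retinoic acid, differed from the other liver P450s in B6 mice. It read 3.36, 3.05 and 3.28 in A/J sham, 6.31, 7.04 and 6.17 in A/J CBDL, 4.10, 3.58 and 3.51 in B6 sham and 4.01, 4.61 and 5.10 in B6 CBDL. The A/J CBDL arrays stood above all others, and B6 sham replicate 3, which was high for the hepatocyte markers, was the lowest of its group. Cyp2c39 rose by 3.28 in A/J mice (standard error 0.29, 9.70-fold, adjusted p = 0.00102), and the B6 value was 0.84 (standard error 0.29, adjusted p = 0.449). Between the CBDL groups it was higher in A/J by 1.93 (standard error 0.29, 3.82-fold, adjusted p = 0.00599). The hepatocyte means of these groups overlapped, and 0 of the 25 hepatocyte markers were called between them in limma (1 at an unadjusted p under 0.05). With 3 arrays per group this does not show equal hepatocyte RNA, and its part in the strain difference was not tested. Smooth muscle markers were higher in every A/J CBDL array than in every B6 CBDL array (6 of 6, where 10.4% of all probe sets were, with 0 called in limma and 3 at an unadjusted p under 0.05). Of 6 leukocyte markers 2 were called higher, where 0.562% of all probe sets were. The part of these markers in the strain difference was not tested. The Cyp2c39 call held in all 21 alternatives, the hepatocyte covariate included (1.95, adjusted p = 0.0113). The interaction was 2.44 (standard error 0.41), with the smallest unadjusted p of the members (9.6e-05), and it did not pass (adjusted p = 0.166).

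Along chromosome 19 the Cyp2c members lie in the order Cyp2c55, Cyp2c65, Cyp2c66, Cyp2c29, Cyp2c39, Cyp2c38, Cyp2c67, Cyp2c68, Cyp2c37, Cyp2c54, Cyp2c50, Cyp2c70 and Cyp2c23. RefSeq gives Cyp2c39 a start on either side of the Cyp2c38 start, so the order of this pair is not settled here. The first 3, all P450s of the intestine, had negative values in both strains. Cyp2c29, the fourth, is an arachidonic acid epoxygenase known from the liver, but it is in none of the liver lists here, and its values had opposite signs in the strains. It measured 5.32, 5.16 and 5.64 in A/J sham, 6.26, 6.92 and 5.83 in A/J CBDL, 8.70, 6.58 and 8.85 in B6 sham and 5.45, 5.94 and 5.97 in B6 CBDL. Every A/J CBDL array was above every A/J sham array, and every B6 CBDL array was below every B6 sham array. The differences were 0.97 (standard error 0.51, adjusted p = 0.423) and -2.26 (standard error 0.51, adjusted p = 0.173), and the averaged value was -0.65 (adjusted p = 0.462). The sham strain difference of -2.67 (standard error 0.51, adjusted p = 0.0220) was a call that ended without any 1 of A/J sham 1, A/J sham 2, B6 sham 1 and B6 sham 3 (adjusted p up to 0.0974). The interaction was 3.22 (standard error 0.72, adjusted p = 0.389) and was called without B6 sham replicate 2. From Cyp2c39 to Cyp2c70 the A/J values were between -0.38 and 3.28 and the B6 values between -0.16 and 0.84, and Cyp2c23 had -0.45 and -0.061. Cyp2c genes resemble each other in sequence, and a probe set named for 1 of them may take signal from another.

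**Figure D4:**
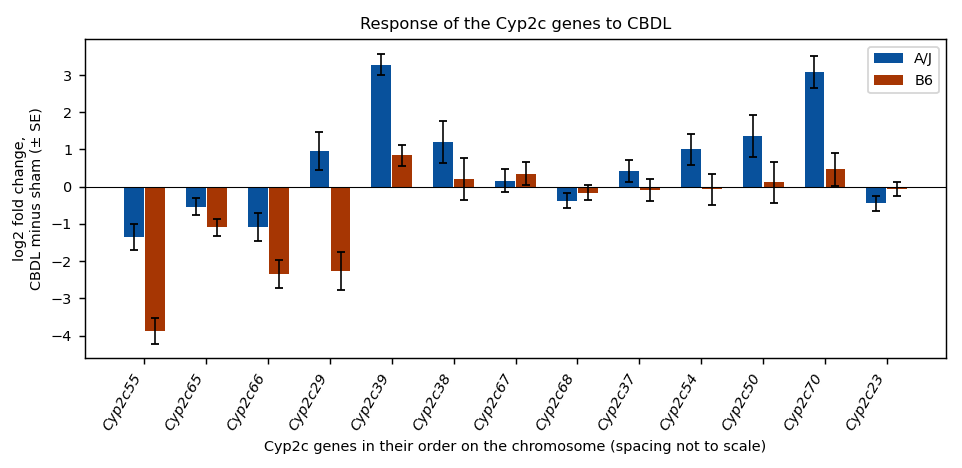
Log2 fold change after CBDL (bars, with standard error) of the 13 Cyp2c members in the order in which they lie on chromosome 19, A/J in blue and B6 in red-brown, n = 3 arrays per group. The order of Cyp2c39 and Cyp2c38 is not settled. Bars of the first 3 genes point down in both strains, Cyp2c29 points up in A/J and down in B6, and the tallest bars are Cyp2c39 and Cyp2c70 in A/J.

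Strain differences in signal were present in further members. Whether the probes bind the RNA of both strains equally was not tested, so a difference in signal may not be one in RNA level. Over all 51 members, 6 lay higher and 12 lower in the A/J sham arrays than in those of B6 without overlap, where 9.15% and 9.53% of all probe sets did so. When only the 6 sham arrays were fitted, Cyp2r1 was the 1 member called. Cyp2r1, an enzyme of the first hydroxylation of vitamin D, was lower in A/J in both conditions. It stood at 3.42, 3.39 and 3.68 in A/J sham, 3.57, 3.87 and 3.55 in A/J CBDL, 4.44, 4.20 and 4.45 in B6 sham and 4.88, 5.23 and 4.77 in B6 CBDL. All 6 A/J arrays lay below all 6 B6 arrays, and the B6 CBDL arrays lay above the B6 sham arrays. The A/J minus B6 difference was -0.87 in sham (standard error 0.15, adjusted p = 0.0110) and -1.29 in CBDL mice (standard error 0.15, adjusted p = 0.00134). The CBDL call held in all 20 alternatives that tested it, and the sham call ended without A/J sham replicate 2 (adjusted p = 0.0581) or B6 sham replicate 3 (0.0554). Its probe set is among the dimmest 30%.

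Cyp2j9, an arachidonic acid hydroxylase, was higher in A/J sham (8.28, 8.13 and 8.30) than in B6 sham (7.42, 7.56 and 7.78) without overlap. The difference was 0.65 (standard error 0.13, adjusted p = 0.0242) and ended as a call without any 1 of A/J sham 1, A/J sham 2, B6 sham 1 and B6 sham 2 (adjusted p up to 0.0927). Cyp2s1 was higher in A/J sham by 0.63 (standard error 0.11, adjusted p = 0.0174), with 9.41, 9.48 and 9.39 against 8.68, 8.83 and 8.89. That call ended without A/J sham replicate 2 (adjusted p = 0.0813) or B6 sham replicate 1 (0.0751). Cyp3a13, by contrast, was lower in A/J sham (10.44, 10.69 and 11.09) than in B6 sham (12.08, 11.35 and 11.83), by -1.02 (standard error 0.22, adjusted p = 0.0396). Its groups did not overlap, but the call ended when each array's median was subtracted (-0.94, adjusted p = 0.0586), with quantile normalization (-0.96, adjusted p = 0.0598) and without any single array other than A/J sham 3, CBDL 1 and 2 of A/J and B6 sham 2 (adjusted p up to 0.142). After CBDL the 3 differences were 0.55, 0.33 and -0.77 (adjusted p = 0.0581, 0.214 and 0.123).

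**Figure D5:**
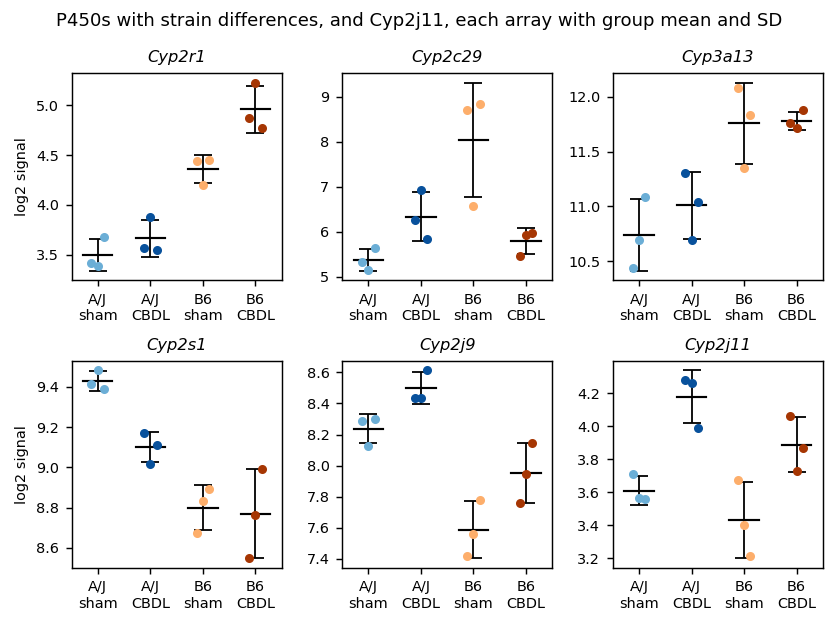
Log2 signal on each array (points) with the group mean (long bar) and SD (short bars), 3 arrays per group, for 5 P450s with a called strain difference and for Cyp2j11. Cyp2r1 is lower in all 6 A/J arrays than in all 6 B6 arrays, and Cyp2c29 is highest in B6 sham; each panel has its own axis, which does not start at 0.

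Among the 24 members in neither group, 0 were called in A/J mice or in B6 mice in limma (3 and 7 at an unadjusted p under 0.05), with medians of 0.065 and -0.029. Cyp2j11 was called in the averaged comparison (0.51, standard error 0.10, adjusted p = 0.0257). Its levels were 3.71, 3.57 and 3.56 in A/J sham, 4.28, 4.27 and 3.99 in A/J CBDL, 3.68, 3.40 and 3.22 in B6 sham and 4.07, 3.73 and 3.87 in B6 CBDL. Sham and CBDL did not overlap in either strain, but the probe set is among the dimmest 30%, and the call was lost without A/J sham 2, without CBDL 1 or 2 of A/J, without B6 sham 2 and without CBDL 1 or 3 of B6 (adjusted p up to 0.0743). Cyp2d26, Cyp2d22 and Cyp2j6 had small differences, with values after CBDL between -0.16 and 0.25 in both strains. Over all 51 members 15 lay higher and 8 lower in A/J CBDL than in A/J sham without overlap, where 8.04% and 9.07% of all probe sets did so. In B6 mice 3 lay higher and 14 lower, where 7.89% and 7.62% did so. Altogether 13 of the 51 were among the dimmest 30% of probe sets, and their low signals limit what could be seen.

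A further 5 probe sets carry the symbols of several P450s of these families and were kept out of the counts. The 3 with Cyp3a symbols had A/J values of -0.49, 0.50 and 0.53 and B6 values of -0.73, -0.51 and -0.53, so that their sign differed between the strains for the pair that names Cyp3a41b and Cyp3a44, as for Cyp3a11 and Cyp3a44 alone. The probe set of Cyp2a5 and Cyp2a4 had 0.94 and 0.55, and that of Cyp2c69, Cyp2c67, Cyp2c68 and Cyp2c40 had -0.17 and -0.22. In limma 0 of the 5 were called in any comparison. Cyp3a16, Cyp3a44 and Cyp3a57 share sequence with such neighbours, and their signals are uncertain for that reason.

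The receptors and partners of these P450s were mostly not called after CBDL. Ahr had values of 0.15 in A/J and 0.11 in B6 (standard error 0.11 each, adjusted p = 0.576 and 0.915), while Cyp1a1 had -2.50 and -1.73. Of the 6 measured genes of the Ahr pathway 0 were called in any of the 6 comparisons in limma (1 at an unadjusted p under 0.05 in A/J and 0 in B6), and Ahrr, the Ahr repressor, had -0.25 and -0.17. Nr1i2 had 0.43 and 0.22 (adjusted p = 0.269 and 0.866) and Nr1i3 0.79 and 0.17 (adjusted p = 0.0816 and 0.933). Nr1h4, the bile acid receptor, was the 1 of 8 nuclear receptors and partners called in the averaged comparison, with a rise of 0.62 (standard error 0.11, adjusted p = 0.0181). Of 6 other CAR and PXR targets, Ces2a, an intestinal carboxylesterase, fell by 1.17 in the averaged comparison (standard error 0.22, adjusted p = 0.0235). Abcc2 and Abcc3, export pumps for conjugates, were called between the strains and were not called after CBDL, where Abcc2 had -0.46 in A/J and -0.38 in B6 without overlap and Abcc3 had -0.32, without overlap, and 0.22. Abcc2 was lower in A/J by -0.91 in sham and -0.99 in CBDL mice (adjusted p = 0.0203 and 0.0140), and Abcc3 was higher by 1.63 and 1.09 (adjusted p = 0.000342 and 0.00359). Among 12 genes of electron transfer and heme supply 0 were called after CBDL in limma (1 in A/J and 3 in B6 at an unadjusted p under 0.05). Alas1, the first enzyme of heme synthesis, had -0.11 and -0.14, and Alad, a later enzyme of the same pathway, was higher in A/J than in B6 by 1.34 in sham and 1.10 in CBDL mice (adjusted p = 0.000561 and 0.00233). Por was not analysed here.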

How the data were processed

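Total RNA from the jejunum was hybridised to Affymetrix Mouse Gene ST arrays, 12 in all and 3 per group. The authors deposited log2 signals for 35556 probe sets. Per the labels the signals were made by RMA with Affymetrix software (Expression Console), while the paper's methods name GCRMA and another array type. The sources used here do not give the versions. RMA corrects background with a single model and brings the arrays to 1 distribution, which compresses differences of dim probe sets. The values ranged from 1.57 to 14.4.

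Gene symbols came from the platform table, updated through gene identifiers: 21789 probe sets have 1 symbol, 1621 several and 12146 none. Of 59 probe sets with a family 1 to 3 P450 symbol, 51 were kept, and 5 with several symbols, 2 pseudogenes and 1 symbol outside the rule (Cyp2ab1) were left out. The deposited values were fitted with limma 3.58.1 in R 4.3.3, 1 mean per group over all 12 arrays, with empirical Bayes variances and the Benjamini-Hochberg adjustment over all probe sets, called at an adjusted p under 0.05. Intervals are at 95%. The number of arrays limits the precision. The members and the gene lists were chosen with earlier results of these data known, so no list is independent evidence. Named genes are the gut and liver P450s of the lists, every member called in a comparison, the main receptors, Por and Alas1 with the called members of the regulator, target and heme lists, and Alb; the others are given by counts and ranges. Alternatives were only the arrays compared, no dim probe sets (the lowest 30%), only probe sets with 1 symbol, quantile normalization, subtraction of array medians, array weights, the replicate number as a block, the hepatocyte marker mean as a covariate, a robust prior with a trend, a fold of at least 1 on the log2 scale, and each array left out. The fit was tested on simulated data. Markers measured were 25 of 26 for hepatocytes, 14 of 14 for enterocytes, 8 of 10 for pancreatic acini, 5 of 6 for goblet cells, 5 of 5 for Paneth cells, 6 of 6 for smooth muscle and 6 of 7 for leukocytes.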

Additional observations from a re-analysis of the deposited data

How the results depend on the processing

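Counts of called P450s are given as A/J, B6, sham strain, CBDL strain, interaction and averaged, against 6, 1, 8, 2, 0 and 12. With only the arrays compared the B6 count was 0 in limma (16 at an unadjusted p under 0.05) and the sham strain count 1. Without the dimmest 30% of probe sets the B6 count was 3, with Cyp2b10 and Cyp2c66 added. With only probe sets that have 1 symbol the A/J count was 10, the B6 count 8 and the CBDL strain count 5. That test ran over fewer probe sets, and it added Cyp1a1, Cyp2b10, Cyp2c29, Cyp2c65, Cyp2c66, Cyp2u1 and Cyp3a25 in B6. Array weights gave 6 in B6, 13 between the shams and 5 between the CBDL groups. They added Cyp1a1, Cyp2b10, Cyp2c29, Cyp2c65 and Cyp2c66 in B6. A fold of at least 1 on the log2 scale left 4 between the shams. With the hepatocyte mean as a covariate, the A/J, B6, sham strain and averaged counts were 0 in limma (13, 21, 17 and 17 at an unadjusted p under 0.05), and standard errors were wider by median factors of 2.62, 1.38, 1.72 and 2.57. In that fit the A/J value of Cyp2a12 was -0.88 and its averaged value -0.48, Cyp2e1 had -0.064 and -0.35, and Cyp2c70 averaged -0.13, all reversed in sign. With each array left out the counts were 4 to 11 in A/J, 1 to 2 in B6, 1 to 8 between the shams, 2 to 3 between the CBDL groups, 0 to 2 for the interaction and 6 to 15 averaged. The causes of these moves were not tested, and the shares of all probe sets called under the alternatives are not given here. Quantile normalization, subtraction of array medians and the trend and robust prior left every count within 1.5 times its main value.

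Replicate numbers of the labels were checked as pairs, and the correlation of same-numbered arrays ran from -0.31 to 0.36, with 2 of 18 over 0.1. The highest was between A/J sham 3 and B6 sham 3. With 3 arrays per group this cannot show whether same-numbered arrays share more than a number. With the replicate block the counts were 5, 1, 8, 3, 0 and 9. The block ended the A/J call of Cyp2a12 (adjusted p = 0.0519), the sham strain call of Cyp2c29 (0.0503) and the averaged calls of Cyp2b10 (0.0530), Cyp2c65 (0.0506) and Cyp3a25 (0.0768), and no other call. Over the 29 calls of single members, 594 values under alternatives were computed: 476 kept the call, 113 lost it with the same sign and 5 reversed. Depth is limited by dim probe sets, since 13 of the 51 members lie among the dimmest 30%.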

Other observations

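P450s of other families, which act on bile acids, sterols and fatty acids, were measured for 31 genes. In A/J mice 3 were called higher after CBDL and 0 lower (limma, where 0.818% of all probe sets were called). Cyp7a1, the first enzyme of bile acid synthesis, rose by 1.84 (standard error 0.33, adjusted p = 0.0319), Cyp4b1, a fatty acid hydroxylase, by 1.36 (standard error 0.17, adjusted p = 0.00678) and Cyp8b1, which sets the share of cholic acid, by 0.74 (standard error 0.14, adjusted p = 0.0374). Their B6 values were 1.50, 0.84 and 0.52, none of which passed (adjusted p = 0.167, 0.132 and 0.283).

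In B6 mice 0 of the 31 were called in limma (7 at an unadjusted p under 0.05). Averaged over both strains 7 were called higher and 1 lower, against 1.74% of all probe sets. Of the 5 measured Cyp4a fatty acid hydroxylases 3 rose, Cyp4a14 by 2.76 (standard error 0.38, adjusted p = 0.00655), Cyp4a31 by 1.44 (standard error 0.25, adjusted p = 0.0170) and Cyp4a10 by 1.25 (standard error 0.26, adjusted p = 0.0397). The other 2, Cyp4a12a and Cyp4a12b, were not called, with 1.37 and 0.91 in A/J, -0.40 and -0.53 in B6 and averaged values of 0.49 and 0.19 (adjusted p = 0.448 and 0.764). Cyp4a14 had 2.22 in A/J and 3.30 in B6, and the difference between the strains did not pass (-1.08, standard error 0.77, adjusted p = 0.838 in the interaction test). Cyp4f16 was the one called lower (-0.96, standard error 0.21, adjusted p = 0.0499), and Cyp4f14 was lower in A/J CBDL than in B6 CBDL (-0.68, standard error 0.09, adjusted p = 0.00342).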
